A study of Mus musculus with 47 samples.

Results

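This comparison sets cultured microglia that lack Apoe against wild-type microglia, both after a meal of myelin. Its members are the 5 Apoe knockout (KO) and the 5 wild-type (WT) libraries whose labels give both the genotype and the myelin treatment, 10 of the 47 libraries of the series. Primary microglia were grown from mouse forebrain in serum-containing medium, and each library holds RNA of a whole culture. Myelin was given for 3 h and the cells were collected at 24 h. The KO libraries are labelled Apoe minus minus, strain C57BL/6, Jackson Laboratory stock 002052, and the WT libraries C57BL/6, Jackson Laboratory stock 000664. The labels give every group of both genotypes the strain C57BL/6, and they give no age, sex, batch or part of Apoe that is disrupted. Untreated KO and untreated WT cultures, 5 libraries each and from the same stocks, entered the same fit. Cultures heterozygous for Apoe after myelin (Het, 4 libraries), which carry the KO stock number 002052, are quoted for their levels only. Genotype and stock cannot be told apart in KO against WT. The labels do not say whether libraries of a group came from separate animals or cultures, so every p-value here speaks only of library-to-library spread, and that spread could be technical.

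Apolipoprotein E is a secreted carrier of cholesterol and phospholipid, and in the brain astrocytes and activated microglia make most of it. A microglial cell that engulfs myelin breaks it down in lysosomes, moves the cholesterol out through ABC transporters onto lipoprotein particles, or stores it as ester in lipid droplets. Liver X receptors (LXR) sense the sterol load and switch on efflux genes, Apoe among them, while SREBP2 switches on cholesterol synthesis and uptake when sterols are scarce.

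The deposited values are TPM, an abundance scaled by transcript length and to a fixed library total, which hold no read depth, so the precision of counting is unknown. Nuclear protein-coding genes made up 23.4% ± 1.59 of all TPM in KO and 19.2% ± 4.43 in WT after myelin (SD, n = 5 each; range 13.05% to 24.8% in WT). That difference of 4.19 percentage points had p = 0.0794 in a two-sided exact permutation test. Without WT replicate 5 it was 5.59, with p = 0.00794 in a two-sided exact permutation test. With any other single KO or WT library left out, the two-sided exact permutation test gave p from 0.0873 to 0.175. Most of the TPM outside nuclear protein-coding genes was a single gene typed as a miRNA in the table, Gm23935. Levels below are therefore scaled TPM, in which each library was brought to its nuclear protein-coding total and then to a trimmed mean of log ratios, and differences are KO minus WT on the scale of log2(scaled TPM + 1). Correlations of log2 levels between libraries of the same group ran from 0.96 to 0.99 and those between KO and WT libraries after myelin from 0.84 to 0.92. WT replicates 2 and 3 had received the lowest weights in a fit with library weights, so calls were also counted without them, a check chosen after the data were seen. Microglial markers were present in both genotypes, with C1qa at 4015 ± 101.4 and Csf1r at 879 ± 84.2 scaled TPM in KO. P2ry12, a receptor of resting microglia, was low in both, at 5.29 ± 0.65 in KO and 5.38 ± 1.71 in WT.

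Apoe itself was examined as a check of the labels. The KO libraries held 77.4, 84.2, 65.0, 67.4 and 75.9 scaled TPM, and the WT libraries 85636, 70772, 78033, 57817 and 61923. Every KO library was far below every WT library, and the mean in WT was 957 times that in KO. The difference was -9.87 on the log2 scale, with p = 0.00794 in a two-sided exact permutation test, the smallest p that 5 against 5 allows. The 4 Het libraries held 33204, 17233, 58679 and 58896. Apoe lies on chromosome 7 at 19696109 to 19699188 in mm10, and the labels do not say which exons the allele removes, so whether the remaining signal covers them was not tested.

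Of 9804 genes tested, 5560 differed between KO and WT after myelin (56.7%) at an adjusted p under 0.05 with limma. In KO 2753 were higher (28.1%) and 2807 were lower (28.6%), and the median over all tested genes was 0.01. The split moved with the processing: scaled to the coding total alone it was 3123 higher and 2430 lower, to that total without Apoe 2404 and 3089, and with no filter 2895 and 3919. Most of these differences were small. The median absolute difference of the called genes was 0.57, 4171 of them stayed below 1 log2, and 582 genes rose (5.94%) and 807 fell (8.23%) by 1 log2 or more. In 3736 genes (38.1%) the 5 KO values lay all above (18.3%) or all below (19.8%) the 5 WT values. Without WT replicates 2 and 3 there were 4936 calls. With so large a share of genes called, a list whose members are called about as often as all genes is no result about that list. The shares of 28.1% higher and 28.6% lower stand beside every list count below.

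The libraries of the 2 genotypes differed in markers of other cells, and this stands beside every gene group that follows. All 13 tested fibroblast and pericyte markers fell in KO, against 28.6% of all genes, and their median difference was -3.69 beside 0.01 for all genes. Their summed level was 269.97, 610.7, 293.7, 206.4 and 308.75 scaled TPM in the KO libraries and 4514, 3858, 5439, 3883 and 3484 in WT. The groups lay far apart, with KO replicate 2 the highest of its group. Untreated cultures showed the same order, at 464 ± 371 in KO and 3768 ± 327 in WT (n = 5 each). KO untreated replicate 5 stood at 1118, the others of its group at 211 to 375. In that library Col3a1 (178) and Dcn (155) were not low, beside 83.0 to 179 and 110 to 137 in untreated WT. Tagln (109) was low there, beside 827 to 1061.

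Col3a1 and Dcn encode a fibrillar collagen and a collagen-binding proteoglycan, and Tagln and Acta2 mark contractile stromal cells. Col3a1 held 3.46, 13.3, 5.13, 3.48 and 7.45 scaled TPM in KO and 179, 93.2, 119, 152 and 104 in WT. Its difference was -4.21 ± 0.67 (SE; adjusted p = 1.76e-05, limma), and the groups did not overlap. Acta2 stood at 137 ± 77.4 in KO and 1473 ± 265 in WT. In the 4 Het libraries Col3a1 was 1.40, 9.10, 0.54 and 3.55, within or below the KO range. Of the markers of this list that were too low to test, Lum, Vtn and Rgs5, none had a mean above 2.27 in any of the 4 groups.

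Markers of other types went both ways. The summed astrocyte markers were 338 ± 18.0 in KO and 463 ± 26.2 in WT, and 6 of 8 fell, led by the gap junction gene Gja1 (-2.66), but Slc1a2 and S100b were near 1 scaled TPM in both genotypes. Endothelial markers summed to 14.97 ± 2.09 in KO and 50.3 ± 12.4 in WT, with 3 of 4 lower and Pecam1 higher, while Cldn5 was at 0.04 and 0.02. For neurons, both tested markers fell, Meg3 (-3.08) and Tubb3 (-2.10), and their sum was 4.87 ± 1.26 against 43.1 ± 10.3, with Snap25 at 0.38 and 0.51. Border macrophage and monocyte markers summed to 2090 ± 169 in KO and 1562 ± 172 in WT, with Mrc1 and Ms4a7 higher and Pf4 lower. Oligodendrocyte lineage and myelin markers summed to 91.1 ± 4.74 in KO and 94.6 ± 8.35 in WT, with 3 of 5 higher and Cspg4 lower (-1.77). The sum over 12 microglia and macrophage markers ran from 16776 to 17821 in KO and from 10576 to 13368 in WT. Of these 12, 9 rose and 1 fell (median 0.35), and 5 rose with all 47 libraries in the fit. What part these markers play in the gene groups below was not tested, and in whole cultures fewer cells of a type and less RNA per cell cannot be told apart.

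**Figure D1:**
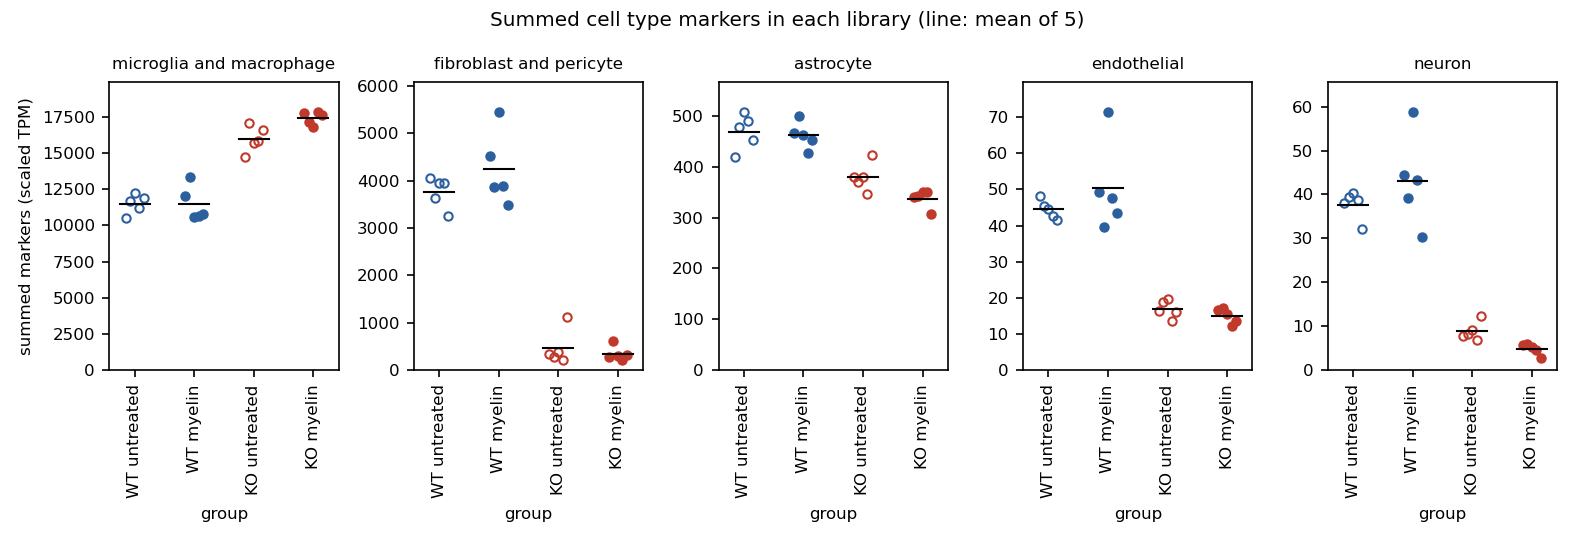
Summed scaled TPM (linear axis from 0) of 5 marker lists in each of the 5 libraries of untreated (open) and myelin-fed (filled) WT and KO cultures, with a line at the mean. KO libraries lie below all WT libraries for fibroblast and pericyte, astrocyte, endothelial and neuron markers after myelin, and above them for microglia and macrophage markers.

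Chromosome 7 around Apoe was searched because the gene sits in a cluster with other apolipoproteins. Within 1 Mb of Apoe, 23 of the 30 other tested genes were called (76.7%, beside 56.7% of all tested genes), 8 higher and 15 lower in KO. Of the 30, 11 (36.7%) were called with a change of 1 log2 or more, beside 14.2% of all tested genes. Within 10 Mb, 82 of 135 were called (60.7%), which is near the share of all tested genes. The neighbours did not move one way.

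Apoc2, a cofactor of lipoprotein lipase whose start lies 24.5 kb from that of Apoe toward lower coordinates, and Apoc1, 6.63 kb away on the same side, fell. Apoc2 held 30.7, 21.0, 26.9, 37.1 and 21.4 scaled TPM in KO and 206, 212, 198, 147 and 140 in WT, a difference of -2.69 ± 0.16 (SE; adjusted p = 1.6e-11, limma). Apoc1 held 39.0, 41.1, 25.6, 43.1 and 23.03 in KO and 174, 185, 122, 84.0 and 120 in WT, a difference of -1.95 ± 0.20 (adjusted p = 5.86e-08, limma). Neither gene overlapped between the groups. In the Het libraries Apoc2 was 384, 109, 210 and 219 and Apoc1 was 422, 154, 230 and 228. Of the Het values, Apoc2 in replicate 2 lay below every WT library, and Apoc1 in all 4 lay within or above the WT range. The cell adhesion genes Nectin2 (-1.32) and Pvr (-1.62) also fell. On the same chromosome Bcl3, an NF-kB cofactor, rose by 1.56 and Bloc1s3, a subunit of a complex that builds lysosome-related organelles, by 1.82, while Tomm40 (0.44, adjusted p = 0.151, limma) was not called. Apoc4, between Apoc1 and Apoc2, was below the filter, at 5.32 in KO and 1.77 in WT on average. By the positions used here Apoc2, Apoc1 and Apoe do not overlap. How the authors' quantification shared reads among genes of this cluster is not given in the sources used here, and was not tested.

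**Figure D2:**
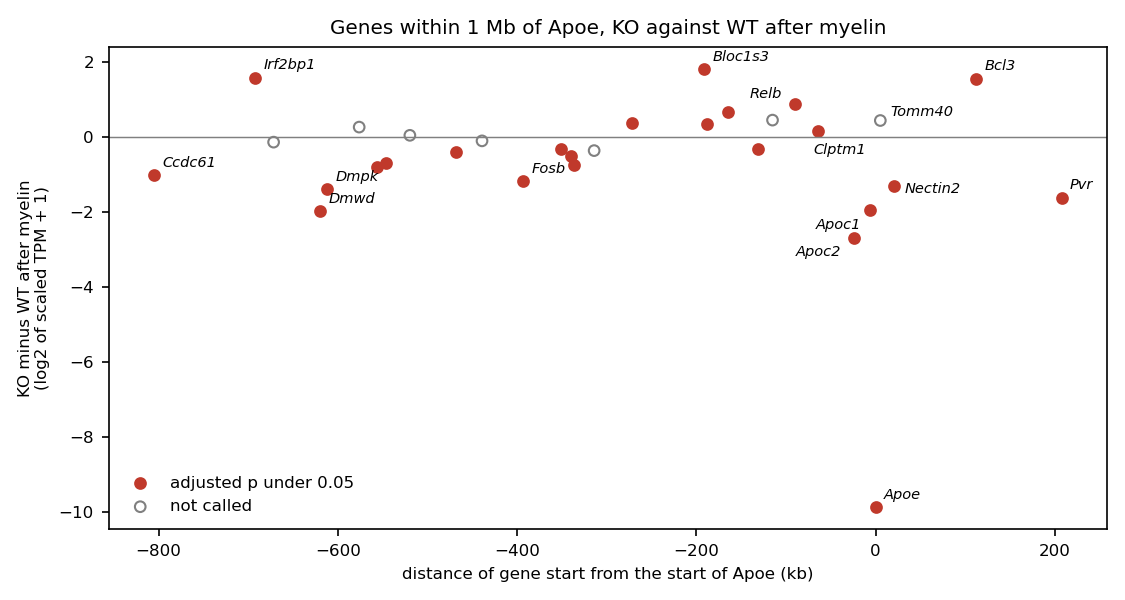
KO minus WT after myelin (log2 of scaled TPM + 1) against the distance of each tested gene's start from that of Apoe in kb. Filled points passed an adjusted p of 0.05 with limma, and neighbours lie on both sides of 0, with Apoc2 (-2.69) and Dmwd (-1.97) lowest after Apoe and Bloc1s3 (1.82) highest.

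In the list of LXR sensors, targets and efflux genes 13 of 20 rose (beside 28.1% of all genes), and the median was 0.27. The 5 that fell were near the share of all genes (28.6%). With all 47 libraries in the fit 9 rose and 3 fell. Without KO replicate 2, 12 rose and 3 fell. Lpl, the lipoprotein lipase that releases fatty acids from lipoproteins, held 3032, 3133, 2650, 2600 and 3156 scaled TPM in KO and 624, 825, 520, 654 and 668 in WT. Its ratio of means was 4.43, and its difference was 2.16 ± 0.10 (SE; adjusted p = 1.47e-12, limma), with no overlap. In Het it was 1414, 602, 1209 and 1668.

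Nr1h3, which encodes LXR alpha, stood at 23.1, 18.0, 19.1, 21.3 and 19.1 in KO and at 8.59, 9.35, 8.62, 8.86 and 8.26 in WT, a rise of 1.11 ± 0.09 (SE). Abcg1, a transporter that loads cholesterol onto lipoprotein particles, rose by 0.93 ± 0.11, from 7.64 ± 1.42 in WT to 15.4 ± 2.37 in KO. Abca1, the transporter that starts such particles, went the other way. Its levels of 55.4, 55.0, 56.5, 62.7 and 71.6 in KO overlapped those of 75.1, 60.8, 71.5, 71.4 and 89.9 in WT, and its fall of 0.28 was called (adjusted p = 0.0262, limma). That call was lost without KO replicate 1, 2 or 3, without WT replicate 5 and with 3 other settings, among them scaling to the coding total alone. Npc1, which moves cholesterol out of the lysosome, rose by 0.61, Pltp by 0.68 and Mylip, an LXR target, by 0.83. The other falls of the list were Apoc1 and Apoc2, described above, Srebf1 (-0.40) and Ch25h (-0.74).

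Cholesterol synthesis and uptake genes shifted little. Of 27 tested, 18 rose (beside 28.1% of all genes) and 1 fell, the median was 0.25 and none moved by 1 log2. With all 47 libraries in the fit 9 rose. Msmo1, an enzyme late in the pathway, held 199, 199, 221, 218 and 205 in KO and 122, 134, 121, 163 and 137 in WT, a rise of 0.63 ± 0.07 (SE; adjusted p = 1.95e-07, limma), with no overlap. Cyp51, the enzyme that removes the methyl group from lanosterol, rose by 0.52. Insig1 (0.63 ± 0.23), which holds SREBP proteins back, and Srebf2 (0.18), which encodes SREBP2, passed the test but overlapped between the groups, and each lost its call without KO replicate 5 and without WT replicate 2. The fall in this list was Scap (-0.28).

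Lipid uptake and storage genes split. Of 22 tested, 10 rose (beside 28.1% of all genes) and 3 fell (beside 28.6%), and the median was 0.23. Cd36, a scavenger receptor that takes up fatty acids and oxidised lipoproteins, held 848, 886, 807, 773 and 830 in KO and 198, 244, 182, 304 and 287 in WT, a rise of 1.79 ± 0.11 (SE; adjusted p = 3.08e-11, limma). Plin2, a coat protein of lipid droplets, held 2141, 2250, 2176, 2275 and 2135 in KO and 1308, 1717, 1374, 1516 and 1402 in WT, a rise of 0.59 ± 0.06. Both groups of values were apart. Lipa, the lysosomal lipase for cholesteryl ester, rose by 1.07. Fabp7 (-1.28), Hilpda (-1.03) and Mgll (-1.24), the lipase for monoglycerides, fell, and Soat1, which esterifies cholesterol for storage, was not called (-0.15).

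Pparg encodes a nuclear receptor that drives lipid uptake in macrophages. It held 35.4, 40.5, 46.2, 38.1 and 37.6 scaled TPM in KO and 7.83, 6.94, 3.75, 7.24 and 7.62 in WT, a rise of 2.43 ± 0.15 (SE; adjusted p = 3.08e-11, limma). The lowest KO library was above the highest WT library, and the Het libraries lay between, at 20.7, 18.4, 18.5 and 18.5. Its list did not follow it. Of 17 PPAR and fatty acid oxidation genes 5 rose (beside 28.1% of all genes) and 2 fell, and the median was 0.07. With all 47 libraries 2 rose and 1 fell. Angptl4, an inhibitor of Lpl, fell by 1.73, from 66.4 ± 13.6 in WT to 19.2 ± 2.52 in KO. Of 13 fatty acid synthesis genes 6 fell (beside 28.6% of all genes), and the median was -0.27. The 3 that rose were near the share of all genes (28.1%). The falls included the desaturase Fads2 (-1.54), fatty acid synthase Fasn (-1.03) and the elongase Elovl6 (-0.93). In the smaller fit of the 10 myelin libraries alone, where 11 of them could be tested, that median was 0.08.

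Lysosomal genes rose together. Of 45 lysosomal hydrolases and membrane proteins 33 rose (beside 28.1% of all genes) and 2 fell, the median was 0.45, and in 32 the KO values all lay above WT (beside 18.3%). With all 47 libraries in the fit 18 rose. The list was chosen with results of these libraries known. Of 17 subunits of the vacuolar proton pump, which acidifies the lysosome, 13 rose (beside 28.1% of all genes) and 1 fell (median 0.34). With all 47 libraries 8 rose.

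Lamp1, an abundant glycoprotein of the lysosomal membrane, moved furthest. It held 902, 1350, 1868, 1428 and 719 scaled TPM in KO and 222, 199, 211, 147 and 183 in WT, a rise of 2.63 ± 0.23 (SE; adjusted p = 5.03e-09, limma). The KO libraries spread over a wide range but stayed above every WT library, and the Het libraries held 908, 423, 780 and 862. KO replicate 3 was highest and KO replicate 5 lowest, as also for Tspan33, Jund and Timp2, which are not on this list. What these genes share was not tested. Naglu, an enzyme that degrades heparan sulfate, rose by 1.31. Among the pump subunits Atp6v1b2 rose by 0.91, Atp6v0d2 by 0.78 and Atp6v0a1 by 0.77. Galc, which degrades the myelin lipid galactosylceramide, rose by 0.83, Mcoln1, a calcium channel of the lysosome, by 0.97, and the proteases Ctsb and Ctsd by 0.70 and 0.62. The exceptions were Ctsk, a collagen-degrading cathepsin, at 11.6 ± 2.50 in KO and 37.0 ± 3.86 in WT (-1.62), and Smpd1, acid sphingomyelinase (-0.28).

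Because these genes moved together, their promoters were read for short motifs from the RefSeq promoter table (build GRCm38.p6). GTCACGTG, the core of the element bound by the lysosomal regulator TFEB, was found on either strand within 250 bases before the start of 11 of the 37 lysosomal genes that matched the table (29.7%), beside 325 of 7777 tested genes (4.18%). It was found in 9 of the 26 matched members that rose and in 2 of the 11 others, and in 1 of 11 pump subunits. The motif was chosen after the differences were known and after 11 strings had been searched over 7 lists. Besides GTCACGTG these were its inner CACGTG, the symmetric TCACGTGA, the sterol regulatory element and its shorter form CACCCCAC, a kappaB site, the AP-1 site TGACTCA, the E2F strings TTTCGC and TTTCGCGC, the cyclic AMP site TGACGTCA and the CCAAT box. GTCACGTG contains CACGTG and overlaps TCACGTGA, and CACGTG was found in 13 of the 37 (35.1%) beside 10.4% of tested genes. A match is a description of the letters, not of binding. The stretches of 60 bases below show the motif in 4 of these genes, 2 with large and 2 with smaller rises, with GTCACGTG or its reverse complement in capitals. They lie at chr8:13159101-13159160 on the plus strand (Lamp1), chr8:3500420-3500479 on the plus strand (Mcoln1), chr11:101069993-101070052 on the plus strand (Naglu) and chr12:102439110-102439169 on the minus strand (Lgmn, a cysteine protease that rose by 0.51).
Lamp1: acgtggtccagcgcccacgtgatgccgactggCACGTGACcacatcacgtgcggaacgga
Mcoln1: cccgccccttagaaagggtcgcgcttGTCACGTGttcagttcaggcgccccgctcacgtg
Naglu: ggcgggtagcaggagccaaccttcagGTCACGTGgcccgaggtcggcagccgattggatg
Lgmn: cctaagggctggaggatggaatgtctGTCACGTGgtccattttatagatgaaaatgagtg
Counted from the starts in the RefSeq table, the Lamp1 motif starts 28 bases before the gene, the Mcoln1 motif 73, the Naglu motif 75 and the Lgmn motif 51. The GENCODE annotation used for the other positions places the start of Lamp1 at the same base, but gives Mcoln1, Naglu and Lgmn other starts, by which the Naglu and Lgmn motifs lie inside the gene.

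Genes for the intake of debris and for early endosomes moved less evenly. Of 19 debris clearance receptors and partners 11 rose (beside 28.1% of all genes) and 3 fell (beside 28.6%), and the median was 0.41. Of 24 endosome and retromer genes 13 rose and 1 fell, beside the same shares (median 0.34). Rac1, a GTPase that drives the phagocytic cup, held 189, 308, 500, 310 and 141 in KO and 56.3, 49.1, 56.1, 40.0 and 47.2 in WT (2.39 ± 0.26, SE). Rab5a, the GTPase of the early endosome, rose by 1.52 ± 0.22. Axl and its ligand Gas6 went opposite ways. Axl, a receptor for phosphatidylserine on dying cells, fell from 167.7 ± 39.2 to 48.1 ± 9.78 (-1.78), and Gas6, which bridges it to its target, rose from 219.9 ± 107 to 499.8 ± 68.1 (1.33). Mertk, the related receptor, rose by 0.30.

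The disease-associated microglia list holds genes raised in microglia around plaques and damaged myelin. Of its 26 tested members 14 rose (beside 28.1% of all genes) and 6 fell (beside 28.6%), and the median was 0.37. Apoe is itself a member. Trem2, the lipid-sensing receptor, held 1469, 1544, 1313, 1553 and 1550 scaled TPM in KO and 890, 1030, 844, 705 and 689 in WT, a rise of 0.85 ± 0.10 (SE; adjusted p = 2.08e-07, limma), with no overlap. Its Het levels were 2293, 1146, 1668 and 1631. Gpnmb, a glycoprotein of lipid-laden macrophages, rose by 0.56 ± 0.07, from 1556 ± 208 to 2283 ± 57.5. The members that fell were Csf1 (-2.85), a growth factor for microglia, Axl, Ch25h, Spp1 (-0.54) and Ccl6 (-0.53) beside Apoe. Csf1 held 19.6, 35.8, 23.9, 14.7 and 18.5 in KO, 184, 114, 206, 167 and 148 in WT, and 11.7, 35.1, 14.8 and 42.0 in Het. Clec7a stood at 191.9 in KO and 162 in WT on average, and was not tested because the deposited table gives it another gene type.

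Genes of resting microglia were also higher on the whole. Of 19 homeostatic genes 14 rose (beside 28.1% of all genes) and 2 fell (median 0.50), and 8 rose with all 47 libraries in the fit. Cx3cr1, the fractalkine receptor, rose by 0.62 ± 0.09 (SE), from 315.8 ± 41.9 to 483 ± 49.3. Tmem119, a microglial surface protein, fell by 0.62, and Sparc, a matrix protein that stromal cells also make, fell by 3.64 to 115 ± 49.4 from 1398 ± 316. Of 22 Alzheimer risk genes of microglia 10 rose (beside 28.1% of all genes) and 3 fell (beside 28.6%), and the median was 0.17. With all 47 libraries 5 rose. The 3 that fell were Fermt2 (-3.30), a gene of integrin adhesion, Clu (-1.20), an apolipoprotein, and Cd33 (-0.86), a sialic acid receptor. Clu is also on the astrocyte marker list, and the part of other cells in these falls was not tested.

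**Figure D3:**
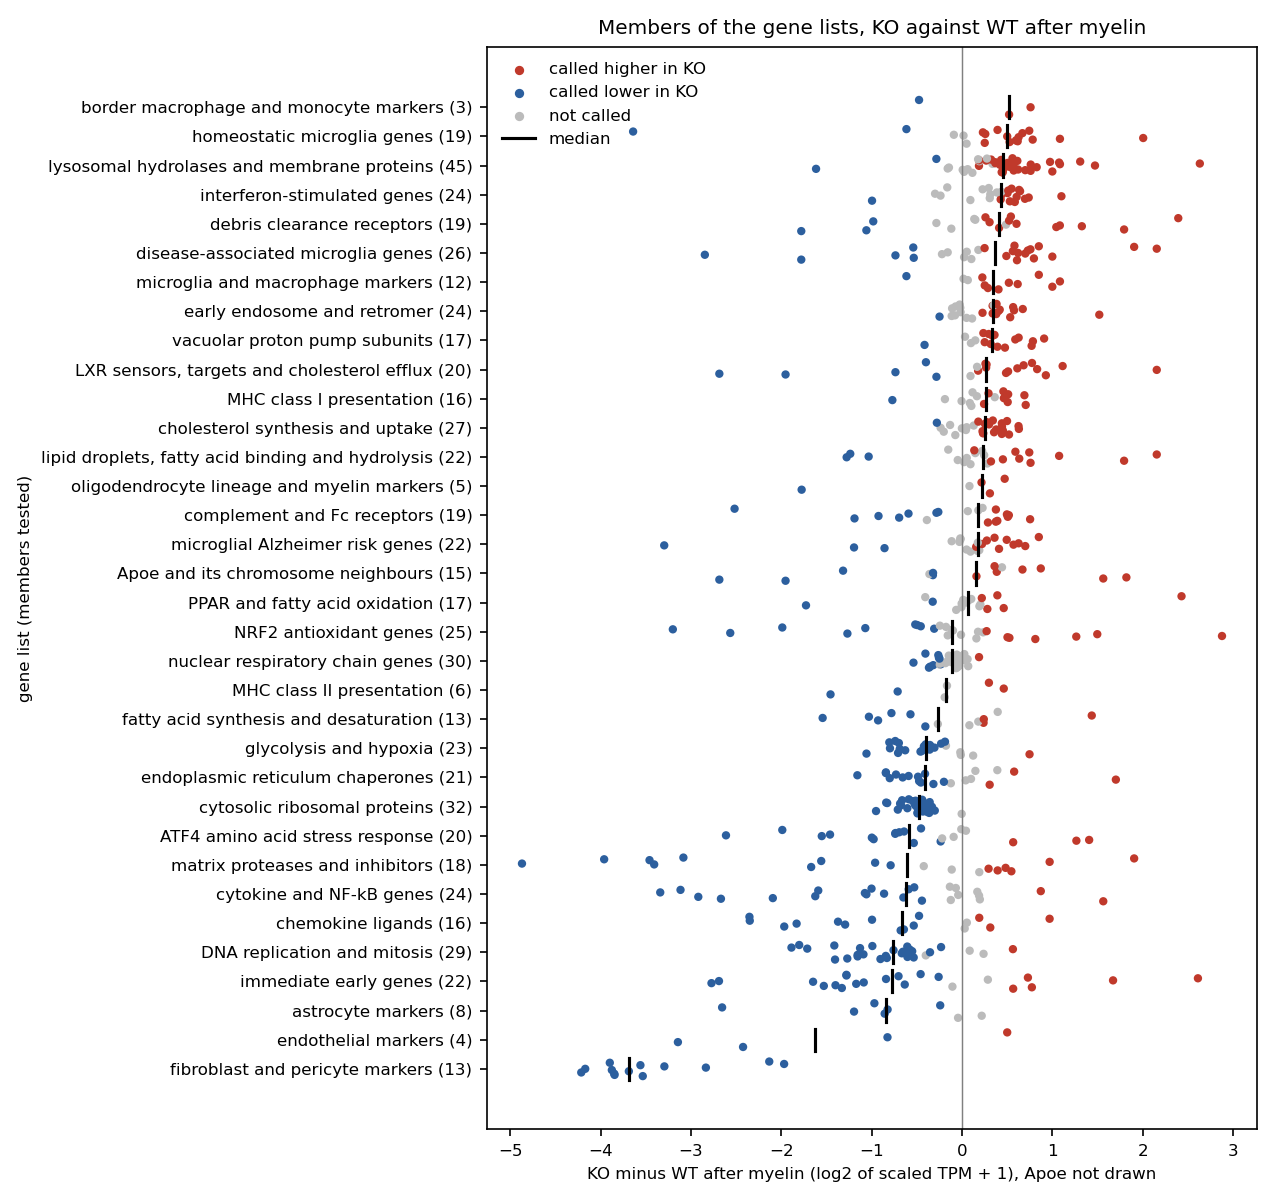
KO minus WT after myelin (log2 of scaled TPM + 1) for each tested member of the lists with 3 or more tested members, coloured by call, with a bar at each list's median; Apoe is not drawn. Lysosomal members centre on 0.45, cytokine and NF-kB members on -0.62 and fibroblast and pericyte markers on -3.69.

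Inflammatory genes were lower in KO. Of 24 cytokine and NF-kB genes 15 fell (beside 28.6% of all genes) and 2 rose, and the median was -0.62. Scaled to the coding total alone, 4 rose and 15 fell. Il1b, the cytokine cut by the inflammasome, held 141, 114, 149, 190 and 89.4 scaled TPM in KO and 582, 541, 464, 632 and 651 in WT, a fall of 2.09 ± 0.16 (SE; adjusted p = 4.8e-10, limma). No KO library reached the lowest WT library, and the Het libraries held 488, 510, 330 and 284. Ptgs2, the inducible cyclooxygenase, held 10.1, 15.8, 13.4, 9.46 and 9.31 in KO and 122, 80.2, 132, 165 and 138 in WT (-3.34 ± 0.17), and Het levels of 8.32, 13.4, 5.99 and 15.04 lay around those of KO. Socs3, a brake on cytokine receptors, fell by 3.12, Il6 by 2.92, Il1a by 2.67 and Tnf by 1.002. Stromal cells also express Il6, Ptgs2 and Socs3, and the fibroblast sum moved with them; its part was not tested. The 2 that rose were Bcl3 (1.56) and Relb (0.87), both within 1 Mb of Apoe.

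Of 16 chemokine ligands 11 fell (beside 28.6% of all genes) and 3 rose (beside 28.1%), and the median was -0.66. Cxcl2, which attracts neutrophils, held 53.5, 66.5, 60.6, 69.3 and 54.7 in KO and 363, 313, 262, 355 and 288 in WT (-2.35 ± 0.10, SE; adjusted p = 5.1e-13, limma), and 385, 489, 231 and 203 in Het. Ccl5 fell by 1.97, from 409 ± 67.9 to 104 ± 20.6. Ccl3 (0.03) was not called and Ccl4 rose by 0.31, so the chemokines did not move as one. These families hold close copies, and how reads were shared among them is not given in the sources used here. Interferon-stimulated genes were higher in part: 13 of 24 rose (beside 28.1% of all genes) and 1, Cxcl10 (-0.996), fell (median 0.43). In 3 of 24 the KO values all lay above WT (beside 18.3% of all genes), so that separation is no result about this list. Ifit3, which binds viral RNA, held 36.9, 15.9, 26.2, 18.6 and 38.2 in KO and 8.001, 14.1, 8.45, 10.2 and 19.6 in WT, with overlap. The count of 13 was 8 without WT replicate 1, 8 without WT replicate 3 and 6 with all 47 libraries.

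Antigen presentation and complement were mixed. Of 16 class I genes 8 rose (beside 28.1% of all genes) and 1 fell. Among the rises were the immunoproteasome subunits Psmb8 (0.69) and Psmb9 (0.51) and the trimming peptidase Erap1 (0.70). With all 47 libraries in the fit, 5 rose. Of 6 tested class II genes 2 rose (beside 28.1% of all genes) and 2 fell (beside 28.6%), counts near those shares. The falls were the T cell costimulators Cd80 (-1.46) and Cd86 (-0.71). The class II chains themselves were too low to test, with H2-Ab1 at 1.46 and 2.02. Of 19 complement and Fc receptor genes 8 rose (beside 28.1%) and 7 fell (beside 28.6%), and 3 rose with all 47 libraries. The 2 anaphylatoxin receptors moved apart. C3ar1 held 710, 702, 710, 701 and 706 in KO and 406, 447, 339, 472 and 440 in WT, a rise of 0.75, and C5ar1 held 322, 346, 325, 281 and 325 in KO and 688, 764, 630, 793 and 787 in WT, a fall of 1.19. The C1q chains C1qa (0.29), C1qb (0.37) and C1qc (0.39) rose slightly, and Serping1, the inhibitor of C1, fell by 2.52 from a WT level of 7.52.

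Of 29 DNA replication and mitosis genes 25 fell (beside 28.6% of all genes) and 1 rose (median -0.76). Rrm2, which makes deoxynucleotides, held 21.1, 25.03, 17.3, 12.97 and 20.6 in KO and 68.1, 68.5, 72.5, 81.2 and 74.7 in WT (-1.89 ± 0.12, SE; adjusted p = 3.46e-11, limma), and Het levels of 7.03, 14.9, 4.30 and 13.6 lay within or below the KO range. Mki67, a marker of cycling cells, fell by 0.58. The fibroblast sum moved with them, and its part was not tested. Of 32 cytosolic ribosomal protein genes 31 fell (beside 28.6% of all genes) and none rose (median -0.47), led by Rpl27 (-0.95) and Rps24 (-0.84). With all 47 libraries in the fit 16 fell. Many pseudogenes resemble these genes, so single values are uncertain. Nuclear respiratory chain genes were called lower about as often as all genes: 9 of 30 fell (beside 28.6%) and 1 rose (median -0.12), and in 3 of 30 the KO values all lay below WT (beside 19.8%). Of the 30, 5 fell with all 47 libraries and 4 without WT replicates 2 and 3.

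Of 23 glycolysis and hypoxia genes 18 fell (beside 28.6% of all genes) and 1 rose (median -0.40). Ldha, which makes lactate, held 717, 787, 778, 825 and 759 in KO and 1169, 1287, 1711, 1474 and 1150 in WT (-0.80 ± 0.09, SE; adjusted p = 1.15e-07, limma). The glucose transporter Slc2a1 fell by 0.80. In the ATF4 list, the response to amino acid shortage, 13 of 20 fell (beside 28.6%) and 3 rose (median -0.59). Phgdh, the first enzyme of serine synthesis, held 49.5, 77.4, 48.6, 52.4 and 63.7 in KO and 352, 333, 542, 324 and 278 in WT (-2.61 ± 0.15), while Cebpg (1.41) and Cebpb (1.27) rose. Of 21 endoplasmic reticulum chaperones 13 fell (beside 28.6%) and 3 rose (median -0.41). Manf, a secreted stress factor, was at -1.16 and Edem1, which sends misfolded glycoproteins to decay, at 1.70.

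Immediate early genes fell in 15 of 22 (beside 28.6% of all genes) and rose in 5 (beside 28.1%), and the median was -0.77. Fosl1 held 4.30, 7.22, 3.12, 4.40 and 4.13 in KO and 38.9, 35.7, 53.8, 32.1 and 26.8 in WT (-2.77 ± 0.18, SE), and Ier3, which protects from apoptosis, fell by 2.69 ± 0.11. Jund, another subunit of AP-1, rose, from 20.6, 12.3, 10.9, 9.58 and 17.8 in WT to 78.8, 118, 143, 84.8 and 48.0 in KO (2.61 ± 0.27). The 5 rises were 3 without KO replicate 3, 3 without KO replicate 4, and 3 without WT replicates 2 and 3. NRF2 antioxidant genes split, with 7 of 25 higher (beside 28.1% of all genes) and 9 lower (beside 28.6%), and the median was -0.11. The count of rises was about the share of all genes, so it is no result about this list. Gclm, a subunit of the enzyme that limits glutathione synthesis, held 259, 311, 352, 351 and 147 in KO and 39.5, 27.2, 38.3, 37.5 and 39.2 in WT (2.88 ± 0.22). Nqo1, a quinone reductase, fell by 3.20 and Slc7a11, the cystine importer, by 1.99, so members of this list moved far in both directions. Matrix proteases and their inhibitors fell in 9 of 18 (beside 28.6%) and rose in 6 (beside 28.1%), and the median was -0.61. Mmp3 (-4.87), Timp1 (-3.96) and Mmp2 (-3.41) are genes that stromal cells express, with the fibroblast sum moving alongside. Timp2 rose by 1.90.

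The 15 largest falls among all tested genes included 3 members of the fibroblast list, Col3a1, Dcn and Tagln, beside Apoe. Mmp3, stromelysin, held 8.27, 21.8, 8.55, 6.64 and 12.1 scaled TPM in KO and 321, 299, 396, 366 and 305 in WT, and Timp1, a protease inhibitor, held 209, 434, 206, 171 and 234 in KO and 3847, 3919, 5476, 3364 and 2515 in WT. Apod, a small lipid carrier, fell from 38.8 ± 5.23 to 0.77 ± 0.60, Igf2, a growth factor, by 4.24, and Il11, a cytokine, by 4.01. Mcpt8, a protease gene of basophils with close copies, so that its level is uncertain, fell from 46.5 ± 12.2 to 1.20 ± 0.79. Mgp, Cthrc1, Thbs2, Inhba and Akr1c18 make up the rest beside Apoe, Col3a1, Dcn and Tagln. KO replicate 2, which had the highest fibroblast sum of its group, had the highest Mmp3, Col3a1, Dcn, Timp1 and Tagln of the 5 KO libraries. Col3a1, Dcn and Tagln are part of that sum, so their order is not independent of it.

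None of the 15 largest rises is on the fibroblast list. Taf10, a subunit of the general transcription factor TFIID, held 208, 273, 252, 247 and 148 in KO and 36.9, 21.9, 19.4, 16.4 and 30.01 in WT, a rise of 3.15 ± 0.24 (SE; adjusted p = 7.27e-10, limma), and the Het libraries held 181, 364, 285 and 206. Ptpra, a receptor phosphatase, held 235, 331, 391, 315 and 209 in KO, 45.7, 45.2, 51.6, 35.2 and 44.0 in WT, and 168, 159, 149 and 186 in Het (2.68 ± 0.17). Rapgef5, which activates Rap GTPases, rose by 2.67 and Bag1, a cochaperone of Hsp70, by 2.55. For Taf10, Lamp1, Jund and Gclm the lowest KO library was replicate 5. By the rule that chose the 15, the groups of each do not overlap. Tmem160, Tspan33, Yrdc, Tpbgl, Nanos1, Zfp771, Tmem221 and 0610012G03Rik complete the 15 with Lamp1, Jund and Gclm.

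**Figure D4:**
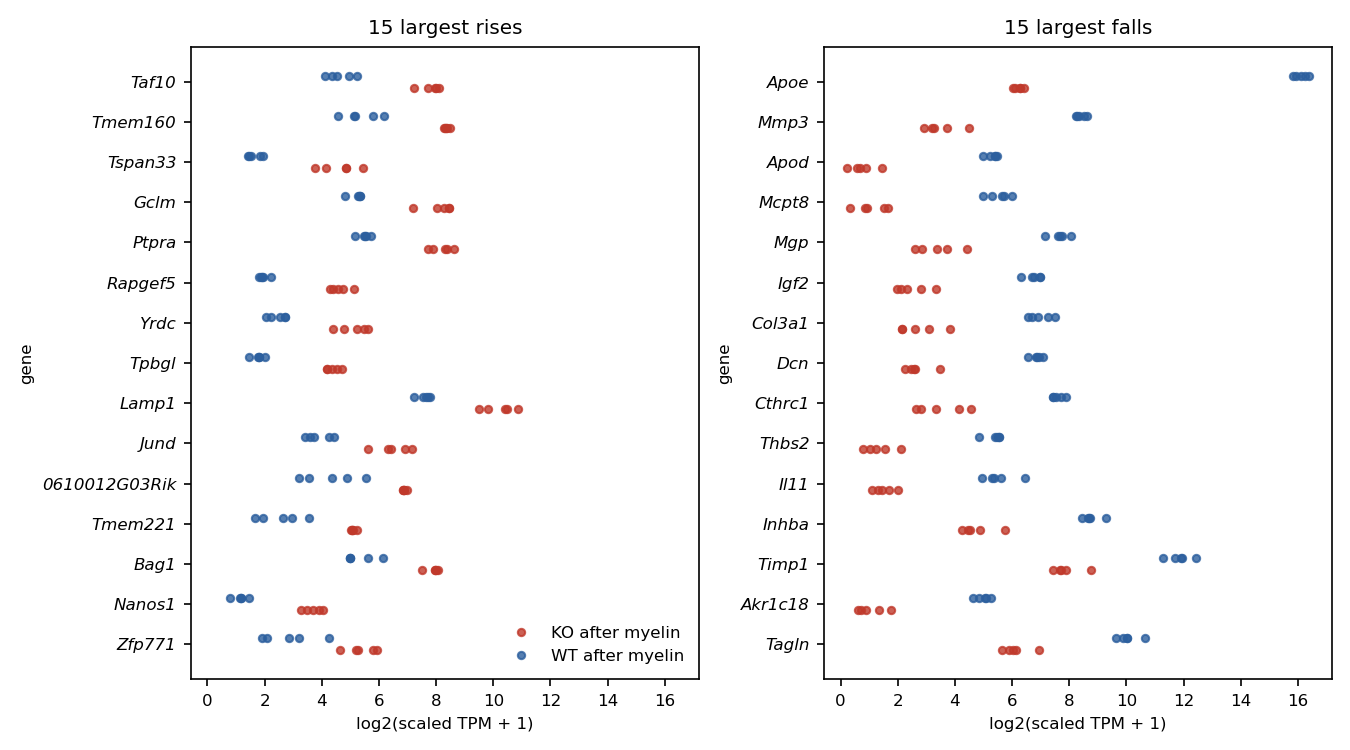
Levels, as log2(scaled TPM + 1), of the 15 largest rises and the 15 largest falls in each of the 5 KO and 5 WT libraries after myelin. By the rule that chose them the groups do not overlap; Taf10 rises most (3.15) and Apoe falls most (-9.87).

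The untreated cultures share no library with those given myelin, and KO differed from WT there in 5820 genes (59.4%), 2862 higher (29.2%) and 2958 lower (30.2%). Of all genes, 4422 were called in both, which is 79.5% of the calls after myelin and 76.0% of the untreated calls. Of these, 4399 had the same direction in both, 2129 higher and 2270 lower in KO. The other 23 had opposite directions. Dock2, an activator of Rac, was higher in KO after myelin (64.5 ± 8.39 against 48.3 ± 6.52) and lower untreated (47.2 ± 3.74 against 55.9 ± 5.08). Vegfa, the angiogenic factor, was lower in KO after myelin (25.9 ± 3.82 against 50.3 ± 27.2) and higher untreated (31.9 ± 4.29 against 18.2 ± 6.56), and its WT spread after myelin was wide. Tested directly, the difference between the 2 effects was called for Dock2 (adjusted p = 0.0336, limma) but not for Vegfa (adjusted p = 0.0543, limma). Both were chosen from the 23 after their values were seen.

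Whether the KO effect itself differed after myelin was tested as the difference between both effects. With limma 158 genes were called (1.61%), 68 with a higher (0.694%) and 90 with a lower effect after myelin (0.918%), and 2219 had an unadjusted p under 0.05 (22.6%). Scaled to the coding total alone it called 54 higher and 26 lower, and to that total without Apoe 41 higher and 24 lower. This count rested on single libraries: it ran from 7 without WT untreated replicate 4 to 759 without WT myelin replicate 2, and 7 genes were called in all 20 removals. Across genes, the difference between the effects had a correlation of -0.39 with transcript GC content, against -0.03 for KO minus WT after myelin; genes are not independent replicates. After a GC correction, chosen after the data were seen, 30 genes were called.

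Atoh8, a transcription factor, had the lowest adjusted p with 5 others (0.0124, limma). It held 1.54, 2.08, 1.54, 1.26 and 1.32 in KO and 8.03, 6.01, 7.81, 7.06 and 6.73 in WT after myelin, and 2.84, 3.17, 3.82, 2.81 and 2.71 in KO and 6.12, 5.33, 4.75, 4.62 and 3.33 in WT untreated. KO minus WT was thus -1.68 after myelin and -0.51 untreated. Mctp1, a calcium-binding membrane protein, did not differ detectably after myelin (0.14, adjusted p = 0.265, limma) and was lower in KO untreated (-0.75), a difference of 0.89. Hist1h3e, a histone gene with near-identical copies, rose by 0.91 after myelin and by 2.05 untreated. Of the 21 chaperones of the endoplasmic reticulum 6 had a higher effect after myelin, among them Pdia4, a disulfide isomerase, at -0.84 after myelin and -1.36 untreated. Fgfr1, a growth factor receptor, went further down after myelin (-1.98) than untreated (-0.62), and Olig1 (0.47 and 1.55) rose less.

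**Figure D5:**
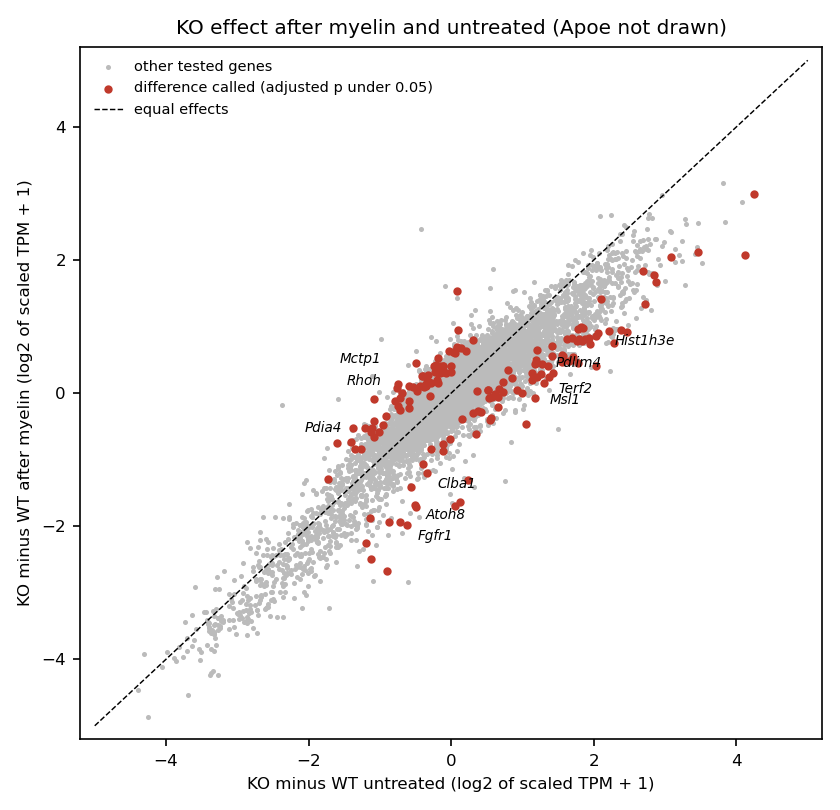
KO minus WT (log2 of scaled TPM + 1) untreated (x axis) and after myelin (y axis) for each tested gene except Apoe, with the line of equal effects dashed. The 158 genes whose effects differed at an adjusted p under 0.05 with limma are red, and 10 of those with the lowest adjusted p are named.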

How the data were processed

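Polyadenylated RNA was sequenced after low-input amplification, per the labels' protocols. The authors deposited TPM for 53697 genes, and columns were assigned to samples by their names. Salmon 0.13.1, limma 3.40.6 and the build mm10 are named in the submitters' processing notes, without a role. The annotation release is not given in the sources used here, nor is the strand setting. TPM hold no depth, so no counting interval is given.

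Each library was rescaled to its nuclear protein-coding total of 1000000 and then by a trimmed mean of log ratios (30% of ratios and 5% of levels trimmed), giving scaled TPM. Such values do not show RNA content per cell. A level of 5 scaled TPM or more in 5 or more of the 20 libraries was required, which left 9661 coding and 143 lincRNA genes, none of them mitochondrially encoded. Of 773 list entries 659 were tested; Clec7a and Ifi30 were left out for their gene type in the table and the rest for low values. Limma 3.58.1 (R 4.3.3) was fitted to log2(scaled TPM + 1) of 4 groups of 5 with equal weights and a trend; this scale understates the change of low genes. Tests were two-sided, with Benjamini-Hochberg adjustment over 9804 genes and a threshold of 0.05. Positions, GC and length came from GENCODE for the same build, where 100% of identifiers matched. In data simulated at these levels, 92% of 2-fold and 75% of 1.5-fold changes were recovered after myelin with 8 false calls (9804 genes). For the difference of effects 86% and 39% were recovered with 7 false calls. Far fewer genes were changed there than were called here, and the noise was independent between genes and libraries. These rates therefore may not carry over to the real data.

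Genes were named by rule: Apoe, the 15 largest rises and 15 largest falls among called genes whose groups did not overlap, up to 4 called members per list with the largest change, up to 10 genes with the lowest adjusted p in the difference of effects, up to 6 called genes within 10 Mb of Apoe, and fixed genes (Abca1, Abcg1, Srebf2, Lpl, Trem2, Gpnmb, Plin2 and Il1b among them). This gave 164 genes, beside a few that are not reported here and were not replaced. Other members are examples chosen after their values were seen. The comparison, lists and rules were chosen with earlier results of these data known. Alternatives were another scaling, pseudocount, filter, library weights, all 47 libraries, the 10 myelin libraries alone, a replicate block and each library left out. Library weights and counts of several fits had been seen before GC correction and the removal of WT replicates 2 and 3 were added.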

Additional observations from a re-analysis of the deposited data

Results flagged for a closer look

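After myelin, 1 library stood apart from the other 4 of its group by Dixon's test in 21 of 332 sets of 5 values examined (6.33%), beside about 1 in 20 by chance. Of these, 6 were in KO replicate 2, 5 in WT replicate 2 and 5 in WT replicate 3. KO replicate 2 was high in Dcn (10.3 scaled TPM, the others 3.77 to 5.11), Timp1 (434), Tagln (123), Angptl4 (23.6) and Sparc (203). It was also high in the summed fibroblast markers (610.7, the others 206.4 to 308.75), a sum that includes Dcn and Tagln.

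WT replicate 2 was low in Gclm (27.2), Thbs2 (27.8) and Cd33 (25.4), and high in Rpl37 (494.7) and Rhoh (15.1). WT replicate 3 was high in Inhba (624), Phgdh (542) and Esam (48.5), and low in Pparg (3.75) and Il1a (7.14). Single values stood out in KO replicate 3 for Rab5a (58.6), in KO replicate 4 for Elovl6 (3.26) and Edem1 (75.5), and in KO replicate 5 for Bag1 (180.7) and Srebf2 (95.2).

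The KO effect after myelin differed from the untreated effect, at an adjusted p under 0.05 with limma, for 14 of the named genes. The effect was lower after myelin, as a difference on the log2 scale, for Fgfr1 (-1.37), Tmem160 (-1.25), Atoh8 (-1.17), Hist1h3e (-1.15), Olig1 (-1.08), Msl1 (-0.97), Clba1 (-0.87), Terf2 (-0.84) and Pdlim4 (-0.70). It was higher for Mctp1 (0.89), Mrc1 (0.70), Rhoh (0.64), Pdia4 (0.51) and Pdia6 (0.43). Most of these were chosen for a low adjusted p in that test, which single libraries moved.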

How the results depend on the processing

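The counts called after myelin ran from 4425 to 6814 over 33 alternatives and those untreated from 4749 to 7476 over the 32 that include untreated libraries, within 1.5 times of 5560 and 5820; untreated, scaling to the coding total without Apoe gave 2338 higher and 3664 lower. Of 161 called named genes, 148 kept call and direction in every alternative, 13 lost the call in at least 1, and none reversed. The difference of the KO effects was called in 158 genes, and in 80 scaled to the coding total alone, 65 scaled to it without Apoe, 10 with no filter, 1007 with library weights, 40 with all 47 libraries, 30 with a GC correction, 32 with a GC correction and the replicate block, and 884 leaving out WT myelin replicates 2 and 3. Without single libraries it ran from 7 to 759, moving over 1.5 times in 18 of 20 removals, all but those of KO myelin replicate 4 and WT myelin replicate 3; the cause was not tested. Without single libraries Apoe ran from -9.94 to -9.80 and the coding share difference from 2.66 to 5.59 percentage points. With all 47 libraries many list counts fell by over 1.5 times, as given with each list.

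Same-numbered KO and WT libraries after myelin deviated with correlations of -0.05, -0.08, -0.07, -0.16 and 0.13, and 0 of 5 KO libraries correlated best with its own number. No pairing by number was seen, but such a check cannot show whether same-numbered libraries shared a preparation, and the labels do not say. With the replicate block 5503 genes were called after myelin, 5809 untreated and 151 for the difference. TPM hold no depth, so small differences of low genes cannot be weighed against counting error.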
